A study of Mus musculus with 2 samples.

Results

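The genes examined were the 4 MEF2 factor genes of the mouse, Mef2a, Mef2b, Mef2c and Mef2d, and its 4 NFI factor genes, Nfia, Nfib, Nfic and Nfix, which are 8 of the 21938 protein-coding genes of GENCODE M21 on the chromosomes used. They were taken by gene name, and the rule that lists them uses no measured value. Open chromatin was mapped by DNase-seq, in which the enzyme DNase I cuts accessible DNA of isolated nuclei, in hippocampal tissue (a layer of the hippocampus, per the labels) of female B6CASTF1/J mice aged 8 to 10 months, an F1 cross between strains. The series holds 2 libraries, numbered as biological replicates 1 and 2, each from a pool of 2 biosamples, with no treatment and no control group. The comparisons are therefore between members, between the libraries, and with the other genes of the same libraries, and no test between conditions was possible. The labels do not state whether the pools came from separate animals, so the spread between libraries may be partly technical. All positions are on mm10 and count from 1.

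MEF2 proteins are MADS-box transcription factors that bind an AT-rich element. Class IIa histone deacetylases hold them in check, calcium entering an active neuron releases them through calcineurin and other signals, and in hippocampal neurons they are known for restraining the number of excitatory synapses. NFI proteins bind as dimers to a palindrome made of paired TTGGC arms, and they are known in the developing hippocampus for steering neural stem cells towards neuronal and glial differentiation, Nfia in particular for the onset of astrocyte formation.

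Replicate 1 had 98902 peaks and replicate 2 had 130199, and 81.6% and 62.0% of them overlapped a peak of the other library. Peak height is the authors' deposited signal, with no scale stated in the sources. It moved in steps of 0.00606 in replicate 1 and 0.00795 in replicate 2, so that a median peak amounted to 99 and 73 steps. All 6 neuronal and both dentate granule cell markers had a promoter peak in both libraries, as did 4 of 5 astrocyte and 3 of 4 oligodendrocyte markers, against 59.2% of all protein-coding genes. Of the other cell types that the hippocampus holds, 1 of 5 microglial and 1 of 4 endothelial and mural markers were open in both. For tissues outside the brain the counts were 1 of 3 for liver and 0 of 4 for skeletal muscle. In bulk tissue, fewer cells with a site open and less accessible DNA in each cell cannot be told apart.

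All 8 genes were open. Each had a peak within 500 bp of at least 1 annotated transcript start in both libraries, against 59.2% of all protein-coding genes. At the level of starts the genes were ordinary, since 36 of their 74 distinct starts had a peak in both libraries (48.6%), against 47.3% of all starts. Of the other starts, 30 had no peak in either library, 6 were open in replicate 1 alone and 2 in replicate 2 alone. Over all starts of protein-coding genes, 1.62% were open in replicate 1 alone and 3.33% in replicate 2 alone. Starts of 1 gene that lie close together share their peaks, and in groups of neighbouring starts 14 of 35 were open. The share of open groups over all genes was not computed, so whether this count is ordinary is not known.

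The height of the promoters spanned a wide range. From the highest down, the mean signal of the highest promoter peak was 6.53 ± 0.65 for Mef2b, 5.41 ± 0.15 for Nfia, 3.92 ± 0.84 for Mef2a and 3.65 ± 0.32 for Mef2d (SD, n = 2 each). Below these, Nfix stood at 2.29 ± 0.04, Nfic at 1.37 ± 0.08, Nfib at 1.24 ± 0.27 and Mef2c at 0.825 ± 0.172 (SD, n = 2 each). The median over all genes open in both libraries was 2.30, so 4 members lay above it, Nfix beside it at the 49.8th percentile and 3 below it. Mef2a and Mef2d overlapped in their library values, as did Nfic and Nfib, and so neither pair is ordered beyond its spread. The Nfic values come from different starts in the libraries, and at its start 81407641, open in both, they were 1.31 and 1.18. With a window of 2000 bp Nfic would stand at 4.64, above Mef2a and Mef2d, because an intronic peak then falls within its window. In 7 of the 8 genes replicate 2 was the higher library, and its median peak shared between libraries was also higher, at 0.827 against 0.685 in replicate 1.

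**Figure D1:**
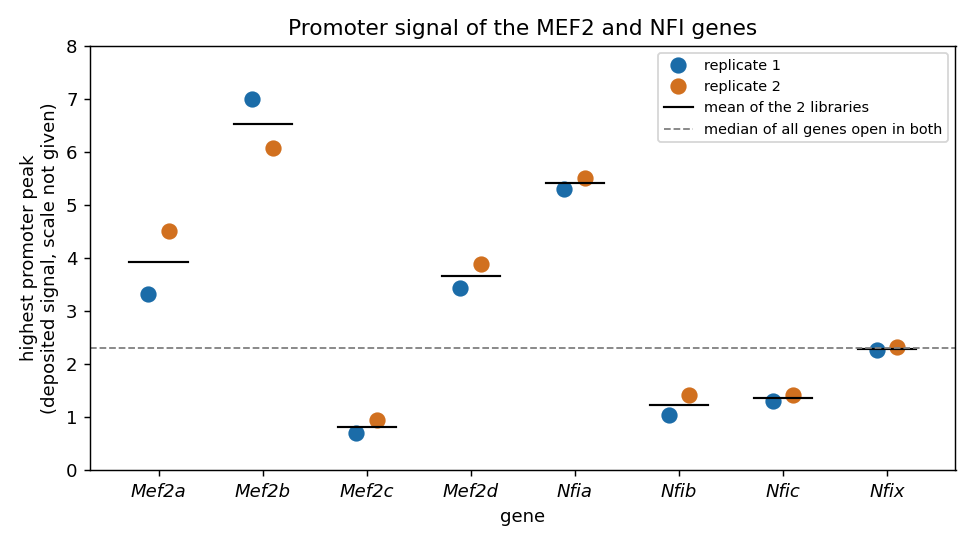
Signal of the highest peak within 500 bp of any annotated start of each gene, with 1 point per library, a bar at the mean of both and a dashed line at the median of 2.30 over all genes open in both libraries. Mef2b and Nfia lie highest and Mef2c lies lowest, at 0.703 and 0.946.

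Mef2a, which encodes a MEF2 factor of neurons and muscle, occupies chr7:67231163-67372858 on the minus strand and has 7 distinct starts. Only the pair at the 5′ end, 67372858 and 67372827, was open. Its peak stood at 3.33 in replicate 1 (chr7:67372781-67373060) and 4.52 in replicate 2 (chr7:67372801-67373040), at the 73.5th percentile of open genes. The 5 internal starts, from 67266162 to 67316965, had no peak in either library and no base listed below the authors' false discovery rate of 0.05. The open start carries a feature that none of the other members' starts had, an exact copy of a 10 bp element that MEF2 proteins bind, searched for on either strand. It is printed here with the copy in capitals, as the 200 bases that end just inside the transcript.
Mef2a start, chr7:67372851-67373050, minus strand: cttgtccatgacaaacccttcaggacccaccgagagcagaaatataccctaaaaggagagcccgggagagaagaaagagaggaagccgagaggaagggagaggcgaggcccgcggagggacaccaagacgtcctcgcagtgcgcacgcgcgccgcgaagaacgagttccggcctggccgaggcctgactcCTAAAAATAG
The element lies at chr7:67372851-67372860, across the start itself and inside the peak of both libraries, and no footprint of either library touched it. The windows of 2 of the 74 member starts held an exact copy, both of them these Mef2a starts, against 0.350% of all start windows. The looser MEF2 consensus was found at 12 of 74, against 9.54%. Windows of neighbouring starts overlap, so the 2 hold the same copy and the 12 are not 12 separate elements.

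Mef2b, the most divergent MEF2 gene, had the highest promoter signal of the 8 genes, but in a peak it shares with its neighbours. The gene occupies chr8:70139711-70167488 on the plus strand, and its 5′ end belongs to 1 transcript. The peak there, chr8:70139121-70139460, stood at 6.99 in replicate 1 and 6.07 in replicate 2 (91.6th percentile), and it also touched the windows of Borcs8, a lysosome positioning gene, and Rfxank, a regulator of MHC class II genes. The midpoint of this peak lies at -421 bp from the Mef2b start in replicate 1 and at -411 bp in replicate 2. The 2 starts farther in, 70152778 and 70152781, serve the other 4 transcripts. They had no peak in replicate 1, with 0 listed bases, and a peak of 0.692 in replicate 2, chr8:70152609-70152767, with 158 listed bases. RefSeq puts its only Mef2b start there, at 70152761, and by that start Mef2b was open in a single library.

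Mef2c, the MEF2 gene needed for normal synapse and cortical development in mice, had the weakest promoter of the set. It occupies chr13:83504034-83667080 on the plus strand with 27 distinct starts in 9 groups. The first group, 83504034 to 83504240, holds 6 transcripts and had neither a peak nor a listed base in either library. The open starts began 19.4 kb into the gene, where all 11 starts between 83523473 and 83524920 had a peak in both libraries. The highest, chr13:83524621-83524940 in replicate 1 and chr13:83524481-83524920 in replicate 2, stood at 0.703 and 0.946, which is the 13.7th percentile of open genes and amounts to 116 and 119 steps. A pair of starts at 83572348 and 83572381 was open more weakly, at 0.491 and 0.573, and the remaining 11 starts were closed. The closed 5′ end and the open start are set side by side, 200 bases upstream of each, with every CG dinucleotide in capitals.
Mef2c 5′ end, closed, chr13:83503834-83504033, plus strand: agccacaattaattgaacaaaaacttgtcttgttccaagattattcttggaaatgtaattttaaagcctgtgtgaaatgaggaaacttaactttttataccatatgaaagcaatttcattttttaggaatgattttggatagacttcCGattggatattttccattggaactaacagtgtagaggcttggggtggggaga
Mef2c open start, chr13:83524091-83524290, plus strand: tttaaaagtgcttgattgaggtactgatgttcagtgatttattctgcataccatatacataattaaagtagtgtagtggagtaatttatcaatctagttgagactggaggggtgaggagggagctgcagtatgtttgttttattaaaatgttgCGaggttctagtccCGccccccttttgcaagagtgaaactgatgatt
The closed stretch holds 1 CG and the open one 2. Over the full windows of 1001 bp the observed to expected CpG ratio was 0.30 to 0.31 at the closed group and 0.67 to 0.73 at the open one.

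Mef2d, which encodes a MEF2 factor known for supporting neuronal survival, was open at its 5′ end. The gene occupies chr3:88142372-88172086 on the plus strand, and 5 of its 6 starts were open. The 4 starts between 88142372 and 88142574 shared a peak of 3.43 in replicate 1 (chr3:88142101-88142360) and 3.88 in replicate 2 (chr3:88142181-88142460), at the 70.5th percentile. An internal start at 88162960 had a peak of 1.83 and 1.63, chr3:88162341-88162600 in replicate 1, in a window almost without CpG (ratio 0.129). The midpoint of that peak lies at -490 bp from the start, so it is among those near the limit of the window. The last start, 88168252, was closed.

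Nfia had the second highest promoter and was open at every one of its 4 groups of starts. It occupies chr4:97772734-98118874 on the plus strand. The peak at the 5′ end, chr4:97772181-97772440 in replicate 1, stood at 5.31 and 5.52 (86.2nd percentile), with its midpoint at -424 bp from the start in replicate 1. A further peak of 4.49 and 6.09, chr4:97773261-97773500, has its midpoint 647 bp after that start and falls just outside the window of 500 bp. The starts at 97880119 and 97911033, deep in the gene, were open at 1.07 and 1.81, and at 1.36 and 1.73. At 97880119 the midpoints of the peaks lie 381 and 441 bp after the start. The second group, 5 starts from 97777608 to 97777834, was the weakest and the least repeatable. Replicate 1 had a peak of 0.739 at chr4:97777710-97777905, which also touched a start window of E130114P18Rik, while replicate 2 had a peak of 0.859 at chr4:97777225-97777296, and these peaks do not overlap. Only 2 of the 5 starts had both peaks within their windows, and the stricter peak list held neither peak. RefSeq places the Nfia start far upstream, at 97581943, and no peak touched that window in either library.

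Nfib was closed at the 5′ end of its record and open 199.97 kb into it. The gene occupies chr4:82290173-82705750 on the minus strand. Its first start, 82705750, belongs to 1 transcript and had no peak and no listed base in either library. All 6 starts between 82505308 and 82505779, with 10 transcripts, were open. The upper 4, from 82505707 on, reached a peak of 1.05 in replicate 1 and 1.42 in replicate 2 (25.6th percentile; chr4:82506061-82506620 in both), and the lower pair, 82505308 and 82505310, stood at 1.01 and 1.18. The midpoint of the higher peak lies at -561 bp from the nearest Nfib start, so the peak only reaches into the window of 500 bp. The 200 bases upstream of the closed and of an open start are shown with each CG in capitals.
Nfib 5′ end, closed, chr4:82705751-82705950, minus strand: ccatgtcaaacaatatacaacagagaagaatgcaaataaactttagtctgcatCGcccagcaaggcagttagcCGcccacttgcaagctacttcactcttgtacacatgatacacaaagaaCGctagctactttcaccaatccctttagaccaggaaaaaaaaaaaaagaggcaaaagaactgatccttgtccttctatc
Nfib open start, chr4:82505780-82505979, minus strand: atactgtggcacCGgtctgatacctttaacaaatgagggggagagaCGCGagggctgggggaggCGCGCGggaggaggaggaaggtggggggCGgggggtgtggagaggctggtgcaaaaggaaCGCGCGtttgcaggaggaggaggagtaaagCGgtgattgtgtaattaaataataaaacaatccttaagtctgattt
The open stretch holds 11 CG and the closed one 3, and the CpG ratio of the full windows was 0.83 to 0.92 at the open group against 0.236 at the closed start.

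Nfic, the NFI gene known from mouse mutants for tooth root formation, had a group of 3 starts on which the libraries disagreed. It occupies chr10:81396186-81455635 on the minus strand. The 5′ end at 81455635 had no peak in either library, with 30 listed bases in replicate 1 and 0 in replicate 2. The start at 81407641 was open at 1.31 and 1.18, and that at 81431005 at 1.16 and 1.42. At the latter the highest peaks of the libraries were different ones. Their midpoints lie at -655 bp in replicate 1 and 665 bp in replicate 2, so both only reach into the window. Those that overlapped, chr10:81430901-81431360 and chr10:81430957-81431313, stood at 0.891 and 0.922. The group between them, 81427114 to 81427187, had a peak of 0.812 with 4 peaks in replicate 1 and no peak in replicate 2. Replicate 1 listed all 1001 bases of these windows and replicate 2 listed 0. Such a split was found at 21 of 93513 starts (0.0225%), these 3 included, and peaks in replicate 1 only at 1.62% of starts. RefSeq places its Nfic start at 81427173, inside this group.

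Nfix was closed at a 5′ end that is rich in CpG. The gene occupies chr8:84699876-84800344 on the minus strand, and its first 3 starts, 84800344, 84800140 and 84800024, had no peak and no listed base in either library. Their CpG ratios, 1.08 to 1.12, were the highest of all member starts. Of the 1425 starts of any gene with a ratio of at least 1, 92.5% had a peak in both libraries and 2.81% (40 starts) had none in either. The open starts began 26.0 kb farther in, at 84774369, with 2.27 and 2.32, and at 84773396, with 0.891 and 1.23. Here the ratio was 0.35 to 0.42. The open start is shown with each CG in capitals, over 300 bases so as to reach its upstream peak at chr8:84774601-84774660.
Nfix open start, chr8:84774370-84774669, minus strand: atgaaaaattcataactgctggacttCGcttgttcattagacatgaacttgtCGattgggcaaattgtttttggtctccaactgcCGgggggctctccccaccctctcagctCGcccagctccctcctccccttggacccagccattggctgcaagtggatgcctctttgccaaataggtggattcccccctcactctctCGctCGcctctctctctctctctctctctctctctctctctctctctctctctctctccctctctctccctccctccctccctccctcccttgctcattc
This stretch holds 6 CG. GC content of the 3 closed windows was 74.8 to 81.2%, and whether so GC-rich a sequence was cut, amplified and placed as well as other sequence was not tested. Of the RefSeq starts that GENCODE M21 lacks, those at 84775828 and 84780082 had peaks, of 1.61 and 1.34 and of 1.15 and 1.11, and that at 84772875 had none in either library.

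Set side by side, the 8 genes fell into 4 that were open in both libraries at the 5′ end of the record (Mef2a, Mef2b, Mef2d and Nfia), as were 53.3% of all genes, and 4 that were closed there in both libraries and open only farther in (Mef2c, Nfib, Nfic and Nfix). Among all genes with an open start, 7.71% were open only away from a 5′ end that had no peak in either library, and 8.64% of those with at least 2 starts. The split was noticed after the values were seen and was not tested, and it depends on which transcripts the annotation lists. By the RefSeq start farthest upstream, Mef2a and Mef2d were still open and Mef2c still closed. Nfia had no peak there, Mef2b had one in replicate 2 only, and Nfic had peaks in replicate 1 only. Nfix was open there in both libraries, at 1.15 and 1.11, and Nfib had no RefSeq match. The 4 genes closed at the 5′ end of the GENCODE M21 record were also the 4 with the lowest promoter signal. With the window of 2000 bp this no longer held for Nfic. CpG content separated open from closed starts in much the same measure as elsewhere. Its median ratio was 0.728 at the 36 open member starts and 0.302 at the 30 closed ones, against 0.730 and 0.227 over all genes. Mef2c alone gave 13 of the 36 and 14 of the 30, and windows of neighbouring starts overlap, so the member medians do not rest on separate sequences. The Nfix 5′ end and the internal Mef2d start were farthest from the general CpG pattern. A ratio below 0.35 went with a peak in both libraries at 8.36% of all such starts.

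**Figure D2:**
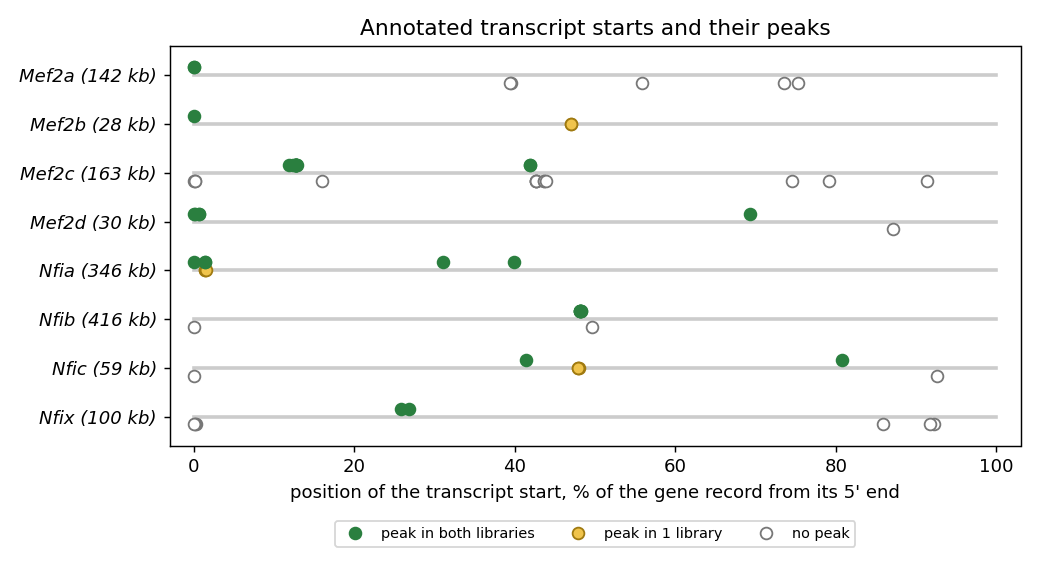
Position of each annotated transcript start along its gene, in percent of the record from the 5′ end, marked by whether a peak of both libraries, of 1 library or of neither lies within 500 bp. The 5′ ends of Mef2c, Nfib, Nfic and Nfix are closed while starts farther in are open, and points of neighbouring starts overlap.

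**Figure D3:**
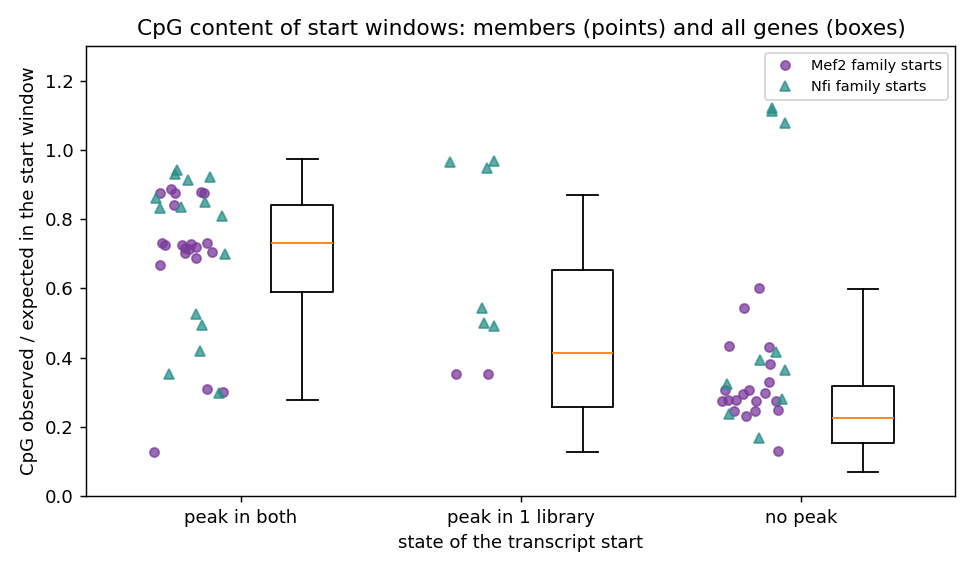
Observed to expected CpG ratio in the 1001 bp around each start, by the state of the start, for members as points and for all protein-coding genes as boxes (median and quartiles, whiskers from the 5th to the 95th percentile). The 3 Nfix starts at 1.08 to 1.12 stand alone among the closed member starts.

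Outside promoters, the members lay in neighbourhoods with many open sites. In each gene record with 50 kb on either side, distal peaks were those away from every protein-coding start, and shared ones were those of replicate 1 that overlapped a replicate 2 peak. Density per 100 kb was 13.1 for Mef2d, 11.0 for Nfix, 7.53 for Nfic, 7.04 for Mef2b, 6.21 for Nfib and 6.05 for Nfia. Mef2c had 3.80 and Mef2a 2.07. The median of all genes was 2.62, with quartiles of 0.965 and 4.17, so 6 members lay above the upper quartile, at the 90.8th percentile or higher. Mef2c lay at the 70.0th percentile and Mef2a, at the 43.1st, below the median. By number, Nfib had 32 shared distal peaks, Nfia 27, Nfix 22, Mef2d 17, Nfic 12, Mef2c 10, Mef2b 9 and Mef2a 5, against a median of 3. Of the 189 distal peaks of replicate 1 in these neighbourhoods, 115 lay in introns and 5 in exons of the member itself, 32 between genes and 37 in other genes.

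**Figure D4:**
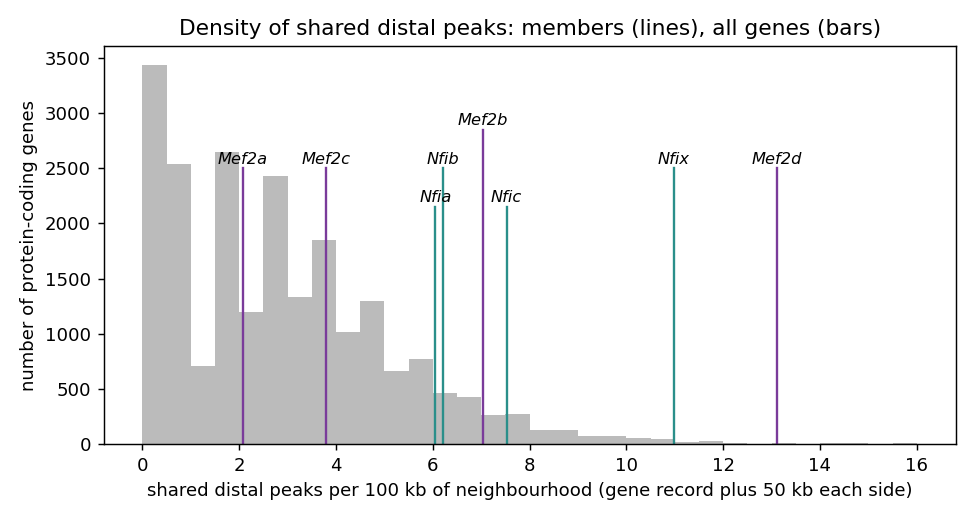
Shared distal peaks per 100 kb of neighbourhood, for the 8 members as lines and for all protein-coding genes as bars. Genes above 16 per 100 kb, 11 in number, are counted in the last bar, and 6 of 8 members lie right of the bulk of genes, from Nfia at 6.05 to Mef2d at 13.1.

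The strongest distal sites were far above the promoters of some members. Downstream of Mef2d, the site chr3:88178001-88178240 stood at 11.8 in replicate 1 and 8.82 in replicate 2, and it lies within 500 bp of a start of the noncoding gene 1700113A16Rik. The second, chr3:88138341-88138560, lies 3.92 kb upstream of the Mef2d record and stood at 5.93 and 5.42, above the Mef2d promoter itself. It ranked at the 99.8th percentile of all shared distal peaks. It is shown because a cyclic AMP response element (TGACGTCA) and an adjoining E-box (CAGCTG), both in capitals, touched the same footprint in each library.
Mef2d upstream site, chr3:88138341-88138560, plus strand: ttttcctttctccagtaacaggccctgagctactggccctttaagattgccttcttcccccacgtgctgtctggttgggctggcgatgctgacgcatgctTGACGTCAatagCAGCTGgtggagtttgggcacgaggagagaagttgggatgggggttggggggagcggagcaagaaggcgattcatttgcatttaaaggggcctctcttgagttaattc
The footprint ran over 26 bp in replicate 1 (chr3:88138430-88138455) and 19 bp in replicate 2 (chr3:88138435-88138453). It covered the whole response element and only the first bases of the E-box.

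Around Mef2c, the strongest site lay outside the gene, beyond its 3′ end at chr13:83715061-83715300, 211 kb from the 5′ end, with 4.13 and 4.79 against a promoter of 0.703 and 0.946. The next, in an intron at chr13:83654981-83655160, stood at 1.76 and 2.50. It holds the core of the motif of CTCF, the insulator protein (CCA, any 2 bases, AG, any 2 bases and GGC), in capitals here on the opposite strand.
Mef2c intronic site, chr13:83654981-83655160, plus strand: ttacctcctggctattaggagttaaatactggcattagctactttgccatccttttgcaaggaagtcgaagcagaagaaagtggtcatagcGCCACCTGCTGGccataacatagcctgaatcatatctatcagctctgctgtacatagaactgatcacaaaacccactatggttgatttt
A footprint of 31 bp, chr13:83655059-83655089, covered that core in both libraries with identical ends. Around Mef2b the strongest sites were chr8:70216561-70216820, with 3.22 and 2.85, and chr8:70129341-70129640, with 2.59 and 2.27. Mef2a was the exception, since its strongest distal sites reached 0.588 and 0.970 (chr7:67199553-67199657, with a CTCF core touched by a footprint in both libraries) and 0.594 and 0.811 (chr7:67421845-67421917), near the middle of all shared distal peaks.

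Among NFI genes, the highest distal site of Nfia was the one just outside its promoter window, at 4.49 and 6.09. The second lay well inside the gene at chr4:97868941-97869160, 96.3 kb from the 5′ end, with 4.24 and 5.24. Nfib had sites of 3.12 and 3.65 at chr4:82513121-82513480, inside the overlapping gene Gm11266, and of 2.42 and 2.60 at chr4:82494921-82495040. Nfix had its strongest sites on either side of the gene, chr8:84663961-84664200 with 4.10 and 4.62 and chr8:84810921-84811240 with 3.31 and 4.44. In Nfic they were intronic, chr10:81432961-81433100 with 4.30 and 4.97 and chr10:81416861-81417120 with 2.48 and 2.49. For Mef2c, Mef2d, Nfib, Nfic and Nfix the best distal site was thus higher than the gene's own promoter in both libraries. For Nfic this depends on the window, since with 2000 bp that peak counts as its promoter peak.

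Sequences that NFI proteins bind were found at some of these sites. A complete palindrome (TTGGC and GCCAA, 5 bases apart) occurred at 1 of the 134 shared distal sites of the members, in an intron of Nfia, against 0.100% of all such sites in windows reaching 100 bp to each side of the peak midpoint. It is printed with the palindrome in capitals.
Nfia intronic site with the palindrome, chr4:97876021-97876180, plus strand: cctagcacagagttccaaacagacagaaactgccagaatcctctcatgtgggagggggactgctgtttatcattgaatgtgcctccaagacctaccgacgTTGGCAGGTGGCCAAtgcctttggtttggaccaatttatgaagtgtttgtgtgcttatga
The palindrome lies at chr4:97876121-97876135. In replicate 1 a footprint of 24 bp covered it whole, and in replicate 2 footprints of 15 and 7 bp each covered part of it. The peak stood at 1.04 and 1.07. Single arms with a further base (TTGGCA, on either strand) occurred at 35 member sites (26.1%), against 22.6% of all sites. At 9 of the 134 sites an arm touched a footprint in both libraries (6.72%), against 4.29% of all sites, including the Nfia and Nfib sites shown next, with these arms in capitals.
Nfia second intronic site, chr4:97868941-97869160, plus strand: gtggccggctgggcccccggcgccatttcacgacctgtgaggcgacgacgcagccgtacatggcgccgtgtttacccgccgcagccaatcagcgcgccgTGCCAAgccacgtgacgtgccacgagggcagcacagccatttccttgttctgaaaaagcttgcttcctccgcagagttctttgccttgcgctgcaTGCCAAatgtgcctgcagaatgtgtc
Nfib intronic site, chr4:82494881-82495081, plus strand: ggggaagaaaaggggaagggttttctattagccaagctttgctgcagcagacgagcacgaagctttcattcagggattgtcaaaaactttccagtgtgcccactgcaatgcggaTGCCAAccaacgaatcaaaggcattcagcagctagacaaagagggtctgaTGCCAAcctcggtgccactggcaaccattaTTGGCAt
Both arms in the Nfia peak touched a footprint in each library, and so did 2 of the 3 in Nfib. The third Nfib arm touched one in replicate 1 only. A short sequence match is no evidence of which protein was bound.

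The MEF2 consensus was about as frequent at the distal sites of the members as at all shared distal sites. It has 10 bases and the single NFI arm 6, so their counts cannot be compared directly. The consensus occurred at 3 of 134 sites (2.24%), near Nfib, Mef2b and Nfix, against 2.53% of all sites. No footprint of either library touched these matches, and only 0.158% of all sites had a match touched in both libraries. The exact element occurred at 0 of 134, against 0.223%. Other motifs differed in share. The SP/KLF box (GGGCGG) occurred at 22 sites (16.4%) against 8.25%, and the AP-1 element (TGANTCA) at 7 (5.22%) against 12.0%. The CTCF core occurred at 10 sites (7.46%) against 10.4%, and at 7 sites (5.22%) it touched a footprint in both libraries, against 7.72% of all sites. The E-boxes CAGCTG and CATCTG occurred at 25 and 37 sites (18.7% and 27.6%), against 21.3% and 32.1%. The response element TGACGTCA, the NRF1 motif (GCGC, any 2 bases, GCGC) and the SRF motif occurred at 2 sites each (1.49%), against 0.432%, 0.608% and 1.03% of all sites. The EGR motif (GCGTGGGCG) occurred at 0, against 0.189%. At the starts, the SP/KLF box was present at 30 of 36 open member starts, against 84.5% of all open starts, the single arm TTGGCA at 22 of 74, against 36.8% of all starts, and the palindrome at 0 of 74, against 0.0802%. AP-1 was present at 18 of the 36 open starts against 14.2%, but neighbouring starts share windows, so these are not 18 separate elements.

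Most distal sites of the members were found in both libraries, with exceptions at Nfic for replicate 1 and at Mef2c for replicate 2. Of the distal peaks of replicate 1, 134 of 189 were shared (70.9%, Wilson 95% interval 64.1 to 76.9%), against 80.8% over the genome. Of those of replicate 2, 138 of 204 were shared (67.6%), against 58%. Without the Nfic neighbourhood, an alternative chosen after seeing the data, the first share was 86.5% (122 of 141). For Nfic itself it was 25% (12 of 48, interval 14.9 to 38.8%), while 12 of the 16 distal peaks of replicate 2 were shared (75%). The 36 distal peaks of replicate 1 without a partner were low, from 0.273 to 0.745 with a median of 0.457, whereas the shared Nfic peaks had a median of 1.41 in each library. Over the genome too, distal peaks of replicate 1 without a partner were lower than shared ones, with medians of 0.339 and 0.612. The intervals cover counting error only.

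The low Nfic peaks stood in runs. Between chr10:81422201 and 81436067, a stretch of 13867 bp inside Nfic picked after its peaks were seen, replicate 1 had 25 peaks and listed 88.0% of the bases below a false discovery rate of 0.05. Replicate 2 had 6 peaks there and listed 13.9%. With the stricter peak list the counts were 23 and 3. Over the whole Nfic neighbourhood, replicate 1 had 70 peaks and listed 17.4% of bases, against 30 peaks and 6.26% in replicate 2, and peaks of the larger list may overlap one another. The other 7 neighbourhoods listed between 1.07% and 6.44% of bases in replicate 1 and between 1.39% and 5.91% in replicate 2. The GC content was 57.7% in the stretch and 54.6% in the neighbourhood, which is the highest of the 8, and its part in the difference was not tested. Mef2c differed in the other direction, with 12 distal peaks in replicate 1 and 26 in replicate 2, of which 10 were shared.

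**Figure D5:**
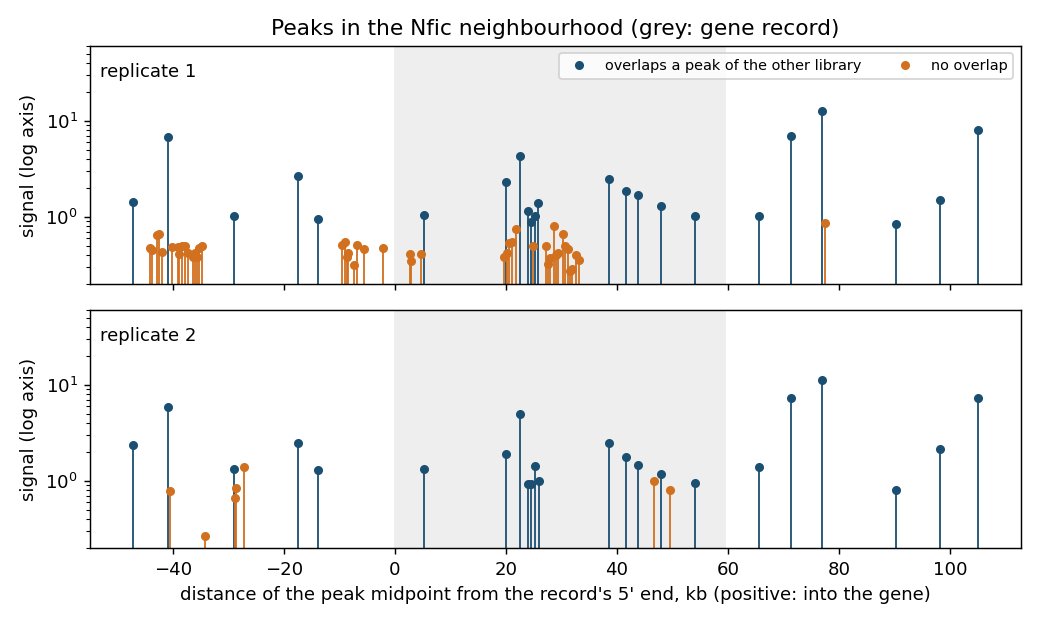
All peaks in the Nfic neighbourhood by distance of the midpoint from the 5′ end of the record, in kb, and by deposited signal on a log axis, for replicate 1 above and replicate 2 below. The 23 shared peaks of each library overlap a peak of the other by definition, and low peaks without a partner occur in runs in replicate 1.

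Footprints near the starts were found in both libraries only in part. In the start windows of the 8 genes replicate 1 had 99 footprints, of which 42 overlapped one of replicate 2 (42.4%, Wilson 95% interval 33.2 to 52.3%), against 53.6% over the windows of all genes. Replicate 2 had 80, of which 41 were shared (51.3%, 40.5 to 61.9%), against 62.3%. Mef2a had 11 of 14 shared in replicate 1 and 10 of 12 in replicate 2. Mef2c, with the lowest peaks, had 3 of 11 and 3 of 15. Mef2d had 6 of 11 and 6 of 7, Mef2b 3 of 6 and 4 of 6, and Nfia 7 of 20 and 7 of 17. The remaining NFI genes had 4 of 10 and 4 of 8 (Nfib), 4 of 14 and 3 of 6 (Nfic), and 4 of 13 and 4 of 9 (Nfix).

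Genes that work with these factors were mostly open too, with 59.2% of all genes as the background. The lists were chosen with earlier results of these data known, so their counts are a description only. Of 15 regulators of MEF2, 14 had a promoter peak in both libraries. The highest were Hdac4, a class IIa histone deacetylase, with 11.0 ± 0.87, and Mapk14, the p38 kinase, with 8.85 ± 0.39 (SD, n = 2 each). Hdac7 was open in replicate 2 only. All 8 genes reported as MEF2 targets in neurons were open, led by Jun with 11.3 ± 1.53 and Klf6 with 10.05 ± 1.10 (SD, n = 2 each), both transcription factor genes. The activity-regulated genes Arc, with 3.87 ± 0.52, and Bdnf, with 1.40 ± 0.19, were among them (SD, n = 2 each). Of 10 genes tied to NFI in glia, 9 were open, led by Aldoc, a glycolytic enzyme gene of astrocytes, with 2.45 ± 0.49, and Sox9, which acts upstream of Nfia, with 2.36 ± 0.19 (SD, n = 2 each). Notch1 was open in replicate 2 only. The median promoter signal of the open genes was 4.30 for the regulators, 4.35 for the neuronal targets and 1.36 for the NFI list, against 2.30 for all open genes.

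The genes most like each member were sought among the 12982 genes open in both libraries, by Euclidean distance over 4 values, the log2 promoter signal and the log2 number of distal peaks (plus 1) in each library. The nearest were Cttnbp2nl for Mef2b (distance 0.0288), Cux2 for Mef2c (0.251) and Chchd6 for Mef2d (0.268). For the NFI genes they were Ralgps1 for Nfia (0.332), Adgrb3 for Nfib (0.166), Sncb for Nfic (0.490) and Upp2 for Nfix (0.153). Among these 7, Nfic had the most distant neighbour, and Sncb had a like imbalance between libraries, which the distance takes in, with 36 distal peaks in replicate 1 and 15 in replicate 2.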

How the data were processed

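DNase-seq of hippocampus was deposited as peak lists, footprints and listed base intervals for each of the 2 libraries. Per the file headers and labels, each file rests on the mm10 alignments of its own library alone. The aligner, peak caller and footprint tool are not named in the labels or headers. Reads of an F1 cross were placed on 1 reference assembly, and effects at sites that differ between the strains were not tested. The deposited peak signal is never negative, and in 100% of peaks it was a whole number of library-specific steps, within 0.05 of a step. It was used only to describe and rank peaks. Every deposited footprint has the same p-value threshold of 0.01, and each deposited base interval has a false discovery rate (treated as a p-value) below 0.05. The larger peak list was used, and the smaller (55102 and 78377 peaks) served as the stricter alternative.

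Starts and genes were taken from GENCODE M21, windows were 500 bp on either side of a start, and overlaps of at least 1 bp were found with bedtools 2.31.1. Sequences and motif matches on both strands were read from the RefSeq copy of GRCm38 with samtools 1.23.1, and RefSeq starts were matched for 7 of 8 members. A match touched a footprint where they shared at least 1 base. Shares have Wilson 95% intervals, from statsmodels 0.14.6. A percentile is the share of open genes, of all genes for density, or of shared distal peaks, with a lower or equal value. Ties between genes were averaged. The overlap and motif code was tested on simulated intervals and sequences. No test was run, because there is 1 group. Named were all 8 members, their 2 strongest shared distal peaks, the 2 list genes with the highest promoter signal and the nearest gene by likeness. Some items that these rules take are not reported here. Members, lists, motifs and markers were chosen with earlier results of these data known. Arc and Bdnf were named after their values were seen.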

Additional observations from a re-analysis of the deposited data

How the results depend on the processing

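No paired analysis was possible because there is 1 group. All 8 members kept a promoter peak in both libraries with the stricter peak list, against 53.3% of all genes, and with a window of 2000 bp, against 63.5%. With the stricter list the Nfic peaks of the libraries lay at different starts, so no Nfic start was open in both. Replicate 2 had its only such peak near 81407641, where replicate 1 had none. Each library alone also had all 8 members, against 60.4% of all genes for replicate 1 and 62.4% for replicate 2. With the 5′ end of the record alone the count was 4, and the median member signal was 4.67 over these 4 genes, against 2.97 over all 8. With the window of 2000 bp that median was 3.79, and Nfic moved to 4.64, because a distal peak then fell within its window. The share of distal replicate 1 peaks found in replicate 2 was 70.9%, and it was 57.0% with the stricter list, 52.4% with a reciprocal overlap of 0.5 and 86.5% without the Nfic neighbourhood, added after seeing the data. It has no value without either library, since sharing needs both. Footprint sharing was 42.4%, and 59.6% for footprints inside peaks of both libraries. Matches required to touch a footprint in both libraries left 0 of 3 for the MEF2 consensus and 9 of 35 for the single NFI arm. With the stricter list the single arm occurred at 21 of only 61 member sites, against 22.9% of all such sites. Of 49 alternative values for the counts, shares and medians, 10 were marked as moved and 39 were not, though not all of these 39 were close. Member starts with a peak in both libraries, 36 as reported, were 29 with the stricter list and 46 with the window of 2000 bp. Replicate 1 alone had a peak at 42 starts and replicate 2 alone at 38. Where no cause is named, the cause was not tested. With 2 libraries, the spread between animals is not known, and the weakest member promoter, that of Mef2c, rests on peaks of 116 and 119 steps.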
